A study of Homo sapiens with 6 samples.

Results

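The respiratory chain is built from proteins of the mitochondrial and the nuclear genome, and its genes were taken from the MACE-Seq table of SEM::mock and SEM::EGR3 by name. Selected were the mitochondrially encoded ND, CO, ATP and CYB genes and the nuclear NDUF, SDH, UQCR, COX and ATP5 structural subunit families. Of 211 matching names, 103 were numbered pseudogenes and were removed, which left 108 of the 35410 genes of the table. They comprise 99 protein-coding genes, namely 13 mitochondrial and 86 nuclear ones, together with 6 pseudogenes and 3 long noncoding RNAs that share the name stem and are described apart. The selection used names alone and no measured value, although it was made with earlier results of these data known.

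Complexes I, III and IV pass electrons from NADH and ubiquinol to oxygen and pump protons across the inner mitochondrial membrane, and complex V uses the proton gradient to make ATP. Complex II feeds electrons from succinate into the same ubiquinone pool and pumps no protons. The mitochondrial chromosome encodes the hydrophobic core subunits of complexes I, III, IV and V on long polycistronic transcripts, whereas complex II is wholly nuclear. The nuclear subunits reach the organelle as separate mRNAs, many of them under promoters bound by NRF1 and by the ETS factor GABP.

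SEM is an established human leukemia cell line described as proB, with the KMT2A::AFF1 fusion. SEM::EGR3 carries a doxycycline-inducible EGR3 transgene and SEM::mock the empty vector. Both lines received 1 µg/mL doxycycline for 48 h before RNA extraction, and 3 biological replicates of each were sequenced, so that the drug is common to all 6 libraries and no uninduced SEM::EGR3 sample is compared here. Doxycycline is itself an antibiotic known to inhibit mitochondrial translation.

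MACE-Seq reads the 3′ ends of polyadenylated RNA. Depth was 5286115 to 6181388 listed counts per SEM::mock library and 7293092 to 15106018 per SEM::EGR3 library. The transgene followed the labels, as EGR3 reached 9768, 4952 and 5557 counts in its own line but 8, 10 and 6 in the empty vector line. The labelled cell type was not met in the mock libraries. In each of them 11 of 14 B-lineage marker genes, among them PAX5, EBF1, CD79A and IGHM, had at most 3 counts. The summed level of the list was 3.00 to 6.28 CPM in SEM::mock against 656 to 688 CPM in SEM::EGR3. CPM are counts per 1000000 counts in the genes kept for testing, scaled by TMM factors. The KMT2A fusion targets HOXA7, HOXA9 and PROM1 were also at or under 3 counts in the mock libraries (3 of 10 listed, summed 64.5 to 76.2 CPM against 1230 to 1291 CPM). MTAP, CDKN2A and CDKN2B of chromosome 9p21 had at most 3 counts in every mock library but summed to 174 to 177 CPM in SEM::EGR3. Erythroid and megakaryocyte markers summed to 5207 to 5505 CPM in SEM::mock and to 6342 to 6589 CPM in SEM::EGR3. Of the 14 tested markers of this kind 4 were higher and 10 lower at an adjusted p-value under 0.05 (edgeR, as described below). Among all 15465 tested genes 36.5% were higher and 32.0% lower by the same test. These shares also stand beside the marker counts that follow. Myeloid markers summed to 384 to 396 CPM against 229 to 232 CPM, T cell markers to 86.9 to 99.2 CPM against 81.3 to 90.1 CPM, and epithelial and fibroblast markers to 750 to 782 CPM against 453 to 477 CPM. Sums hide opposite differences within these lists. Of 5 tested T cell markers 2 were higher and 3 lower, with a log2 fold change of SEM::EGR3 over SEM::mock of 5.94 for TRAC, -4.23 for TRBC1 and -3.25 for CD3D. Of 6 tested myeloid markers 1, CEBPA, was higher (3.35) and 4 were lower, and of 5 tested epithelial and fibroblast markers 2 were higher and 3 lower. The part of these cell type differences in the results below was not tested. All 3 mock libraries shared this pattern, so no comparison without them exists. A difference between the lines and an effect of EGR3 cannot be told apart in any value below, nor can fewer cells of a type and less RNA per cell, or fewer mitochondria and less RNA in each.

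The mitochondrial mRNAs were less abundant in SEM::EGR3 than in SEM::mock, while the nuclear subunits moved in both directions. Counts of the 13 mitochondrial genes made up 7.11%, 8.39% and 8.17% of the listed counts in SEM::mock replicates 1 to 3. In SEM::EGR3 they made up 6.28%, 5.86% and 5.96%. The lines did not overlap, with means of 7.89% ± 0.68 and 6.03% ± 0.22 (SD, n = 3 each). The 86 nuclear genes took 2.80%, 2.73% and 2.72% of the counts in SEM::mock and 2.52%, 2.59% and 2.57% in SEM::EGR3, a smaller difference that again left the lines apart. The ratio of mitochondrial to nuclear counts was 2.54, 3.07 and 3.00 in SEM::mock and 2.49, 2.26 and 2.32 in SEM::EGR3. Mock replicate 1 lay only just above SEM::EGR3 replicate 1 in this ratio. These sums over the members carry no test.

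Here and below, genes were assigned to complexes by name. The ratio between the genomes differed from complex to complex. In complex V it was 1.21, 1.55 and 1.49 in SEM::mock and 0.913, 0.795 and 0.835 in SEM::EGR3. In complex IV it was 4.85, 5.20 and 5.36 in SEM::mock and 4.06, 4.003 and 3.92 in SEM::EGR3. The libraries of the lines did not overlap in either complex. In complex I the ratio spanned 2.57 to 3.55 in SEM::mock and 2.60 to 3.12 in SEM::EGR3, and in complex III 1.69 to 1.98 and 1.82 to 2.05, so that the lines overlapped in both. In complex III the mitochondrial share (0.836% ± 0.059 against 0.659% ± 0.026) and the nuclear share (0.449% ± 0.0059 against 0.338% ± 0.0083, SD, n = 3) were both smaller in SEM::EGR3. The smaller nuclear share rested largely on UQCRH, with means of 2002 CPM in SEM::mock and 958 CPM in SEM::EGR3. Of the 9 nuclear complex III genes, 4 had a positive and 5 a negative log2 fold change, with a median of -0.02.

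**Figure D1:**
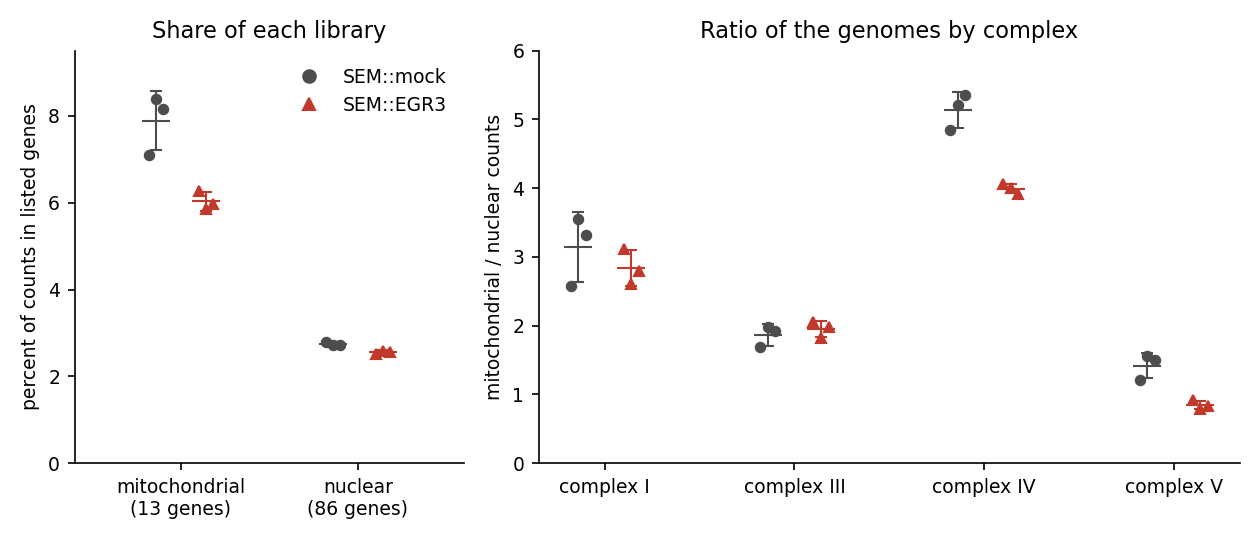
Left, percent of the listed counts in the 13 mitochondrial and 86 nuclear genes of each library. Right, ratio of mitochondrial to nuclear counts by complex. Circles are SEM::mock and triangles SEM::EGR3 libraries, bars give the mean and SD of 3. The mitochondrial share lies between 7.11% and 8.39% in SEM::mock and between 5.86% and 6.28% in SEM::EGR3, and the ratio separates the lines in complexes IV and V but not in I and III.

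Gene by gene, 12 of the 13 mitochondrial genes passed an adjusted p-value of 0.05 as lower in SEM::EGR3 and 0 as higher. The test was the quasi-likelihood test of edgeR with Benjamini-Hochberg adjustment over 15465 tested genes. The genes are not all separate mRNAs, since MT-ATP8 with MT-ATP6 and MT-ND4L with MT-ND4 are bicistronic. The background is high in this contrast. Of all tested genes, 68.5% passed the same threshold, 32.0% as lower and 36.5% as higher. The median log2 fold change (log2fc, SEM::EGR3 over SEM::mock) of the 13 genes was -0.43, compared with 0.03 over all tested genes, and all 13 values were negative. The libraries of the lines did not overlap for 8 of the 13, with SEM::EGR3 below, while 32.6% of all tested genes showed that pattern and 70.1% were without overlap in either direction. No mitochondrial gene reached an absolute log2fc of 1, as 25.2% of all tested genes did in either direction with an adjusted p-value under 0.05.

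MT-ATP6 and MT-ATP8 encode the membrane subunits a and A6L of complex V and had the largest differences. MT-ATP6 (chrM:8527-9207, plus strand) was measured at 9448, 12185 and 11648 CPM in SEM::mock and at 6573, 5874 and 6176 CPM in SEM::EGR3. Its level was lower in every SEM::EGR3 library (log2fc -0.84 ± 0.07 SE, adjusted p = 4.85e-11). MT-ATP8 (chrM:8366-8572) stood at 82.3, 136 and 142 CPM in SEM::mock and at 82.4, 64.5 and 75.0 CPM in SEM::EGR3. Mock replicate 1 fell among the SEM::EGR3 values, and the log2fc was -0.68 ± 0.12 (adjusted p = 2.19e-05). Both reading frames lie on one bicistronic mRNA and overlap, so that reads in the shared part may be counted for either or for neither.

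Of complex IV, MT-CO1, MT-CO2 and MT-CO3 encode the catalytic core. MT-CO3 (chrM:9207-9990) was measured at 19028, 21039 and 20516 CPM in SEM::mock and at 13927, 14034 and 14135 CPM in SEM::EGR3. The lines were clearly apart (log2fc -0.53 ± 0.05, adjusted p = 4.84e-10). MT-CO2 was at 10131, 10431 and 11258 CPM against 8027, 8183 and 7487 CPM (log2fc -0.43 ± 0.05, adjusted p = 6.13e-08), and MT-CO1 at 3131, 3393 and 3537 CPM against 2817, 3063 and 2711 CPM (log2fc -0.23 ± 0.05, adjusted p = 0.000656). No library of SEM::EGR3 reached the lowest mock library for any of the 3 genes. In complex III, MT-CYB, the cytochrome b gene, was at 7844, 9109 and 8897 CPM in SEM::mock and at 6593, 6177 and 6572 CPM in SEM::EGR3, also without overlap (log2fc -0.42 ± 0.05, adjusted p = 2.01e-07).

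The 7 ND genes encode the membrane core of complex I and fell into a more and a less reduced set. MT-ND2 was measured at 3412, 4972 and 4544 CPM in SEM::mock and at 3077, 2422 and 2601 CPM in SEM::EGR3 (log2fc -0.67 ± 0.09, adjusted p = 4.22e-07). MT-ND3 was at 3028, 3857 and 3586 CPM against 2378, 2256 and 2335 CPM (log2fc -0.59 ± 0.06, adjusted p = 9.23e-09). MT-ND6, the only mRNA gene on the minus strand (chrM:14149-14673), was at 87.6, 93.6 and 84.5 CPM against 58.2, 56.2 and 57.8 CPM (log2fc -0.63 ± 0.06, adjusted p = 5.66e-09). These 3 genes showed no overlap between the lines. MT-ND6 mRNA is known to lack a poly(A) tail, and the strand setting of the counting is not given in the sources used here, so its counts may include other transcripts of that region.

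For the remaining ND genes the lines overlapped. MT-ND1 ranged from 4455 to 5976 CPM in SEM::mock and from 4082 to 4664 CPM in SEM::EGR3 (log2fc -0.30 ± 0.07, adjusted p = 0.00077). MT-ND4 spanned 11077 to 14582 CPM against 10564 to 12035 CPM (log2fc -0.23 ± 0.07, adjusted p = 0.00483) and MT-ND4L, its bicistronic neighbour, 192 to 277 CPM against 186 to 224 CPM (log2fc -0.25 ± 0.09, adjusted p = 0.016). Both calls were lost with DESeq2's Wald test (adjusted p = 0.11 for MT-ND4 and 0.20 for MT-ND4L), and that of MT-ND4L also without mock replicate 3 (adjusted p = 0.16) or SEM::EGR3 replicate 3 (adjusted p = 0.072). MT-ND5 spanned 615 to 799 CPM against 623 to 702 CPM and was not called (log2fc -0.14 ± 0.07, adjusted p = 0.077), but it passed without mock replicate 1 (log2fc -0.27, adjusted p = 0.00017) and without SEM::EGR3 replicate 1 (log2fc -0.18, adjusted p = 0.047). In all of these genes mock replicate 1 was the lowest mock library.

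The mRNAs of the plus strand are cut from common precursors. In chromosome order the log2fc was -0.30 at MT-ND1, -0.67 at MT-ND2, -0.23 at MT-CO1, -0.43 at MT-CO2, -0.68 at MT-ATP8, -0.84 at MT-ATP6, -0.53 at MT-CO3, -0.59 at MT-ND3, -0.25 at MT-ND4L, -0.23 at MT-ND4, -0.14 at MT-ND5 and -0.42 at MT-CYB. The log2fc was thus more negative at each gene from MT-CO1 to MT-ATP6 and less negative at each from MT-ND3 to MT-ND5. MT-ATP8 and MT-ATP6 share an mRNA, as do MT-ND4L and MT-ND4, so the steps within these pairs are not between separate transcripts. Whether the log2fc changes along the chromosome was not tested. The ribosomal RNAs of the same strand were close between the lines. MT-RNR1 was at 1537, 1931 and 1814 CPM in SEM::mock and at 1819, 1702 and 1706 CPM in SEM::EGR3 (log2fc -0.01 ± 0.06, adjusted p = 0.84). MT-RNR2 was at 8568, 11026 and 11213 CPM against 9661, 9073 and 9282 CPM (log2fc -0.14 ± 0.07, adjusted p = 0.077). The ribosomal RNAs carry short tails and were counted here only as far as the poly(A) selection captured them. Whether the mRNAs differed from the ribosomal RNAs was not tested.

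**Figure D2:**
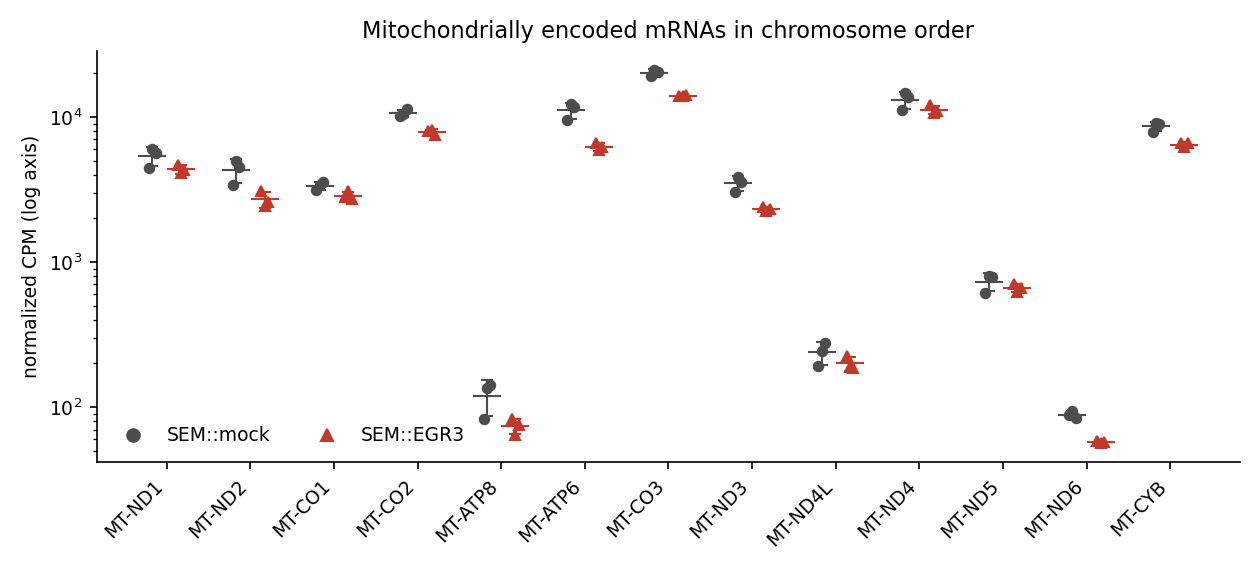
Normalized CPM on a log axis of the 13 mitochondrial mRNA genes in chromosome order. Circles are SEM::mock and triangles SEM::EGR3 libraries, bars give the mean and SD of 3. SEM::EGR3 lies below SEM::mock without overlap for 8 genes, and the widest gap is at MT-ATP6, at 9448 to 12185 CPM against 5874 to 6573 CPM.

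Near-identical nuclear copies of mitochondrial genes share reads with several of these mRNAs. The table lists 183 such copies, which held 1.35% ± 0.046 of the counts in SEM::mock and 1.12% ± 0.045 in SEM::EGR3. Copies of MT-CO1, mainly MTCO1P12, took 66.6% to 69.5% of the counts assigned to MT-CO1 or its copies in every library, and those of MT-CO2, mainly MTCO2P12, took 27.7% to 32.2%. The log2fc of MTCO1P12 was -0.16 ± 0.05 and that of MTCO2P12 -0.55 ± 0.05 (adjusted p = 0.00899 and 1.76e-09). With the counts of copies added to the parent gene, the log2fc of MT-CO1 was -0.18, that of MT-CO2 -0.46 and that of MT-ATP6 -0.83, and again 12 of 13 genes were lower.

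Of the 86 nuclear genes, 80 passed the filter on low counts. Among them 14 were higher, 38 were lower and 28 were not called in SEM::EGR3, which is 17.5% and 47.5% next to the 36.5% and 32.0% of all tested genes. The median log2fc was -0.12. Without normalization factors the split became 19 higher and 26 lower (42.2% of the calls higher in place of 26.9%), and the median -0.04. The lines did not overlap for 15 nuclear genes with SEM::EGR3 above and 42 with SEM::EGR3 below, where the shares of all tested genes were 37.5% and 32.6%. Most differences were small, and 2 of the 80 genes reached an absolute log2fc of 1, NDUFA4L2 and UQCRH.

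Counted by complex, complex I had 7 higher and 18 lower genes of 38 tested (median log2fc -0.12), complex III 2 and 4 of 9 (-0.02), complex IV 1 and 7 of 11 (-0.14), and complex V 2 and 9 of 18 (-0.15). Complex II had 2 higher and 0 lower of 4 (0.14). No SDH gene was lower at an unadjusted p-value under 0.05 by edgeR, nor at an adjusted one by DESeq2. With at least 10 counts asked of every library, 3 instead of 7 complex IV genes were lower.

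**Figure D3:**
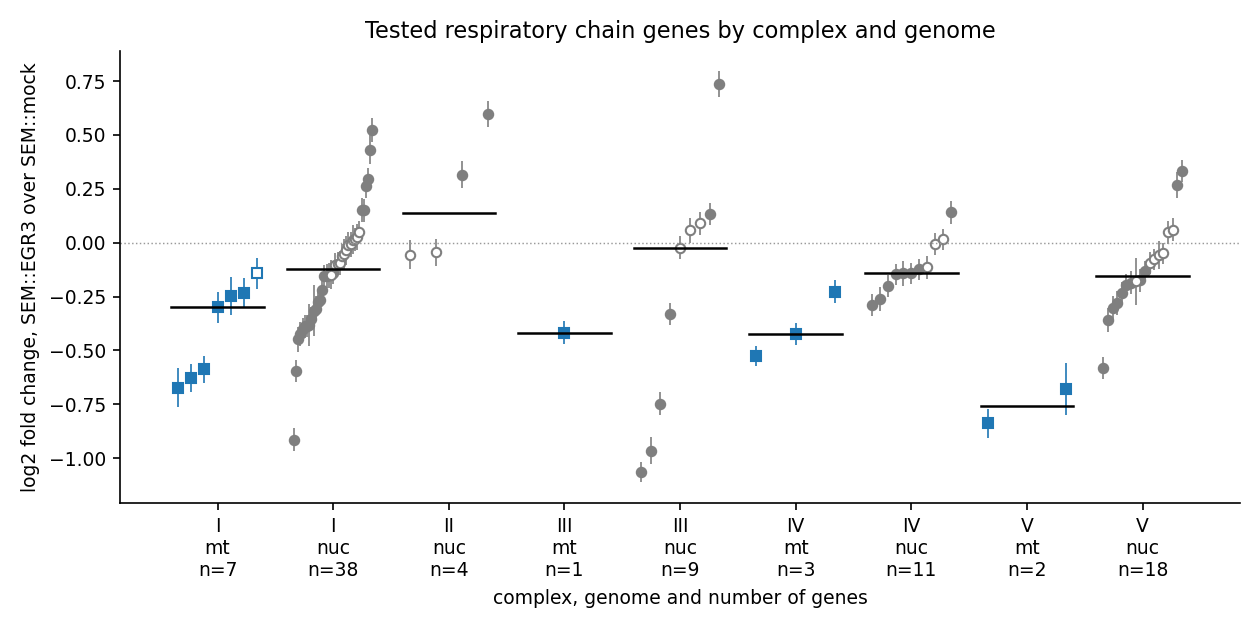
Log2 fold change (SEM::EGR3 over SEM::mock) with its standard error for the tested genes, by complex and genome (mt, mitochondrial, blue squares; nuc, nuclear, grey circles). Filled symbols passed an adjusted p-value of 0.05, black lines are medians, and NDUFA4L2 (complex I, 3.22) lies above the axis. All mitochondrial values are negative, with a median of -0.43, while nuclear values run from -1.06 to 0.73 on this axis.

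Apart from the weakly expressed NDUFA4L2, complex III held the largest nuclear differences in both directions. UQCRH, the hinge protein between cytochrome c1 and cytochrome c (chr1:46303631-46316776), was measured at 1969, 2027 and 2010 CPM in SEM::mock and at 937, 954 and 982 CPM in SEM::EGR3. It fell in every library to below the lowest mock value by a wide margin (log2fc -1.06 ± 0.05, adjusted p = 5.7e-16). UQCRHL, an intronless copy of UQCRH with a near-identical sequence, was at 194, 178 and 202 CPM against 92.8, 106 and 96.5 CPM (log2fc -0.97 ± 0.06, adjusted p = 9.17e-13), a value that may rest on reads of UQCRH. UQCR11, a small membrane subunit, was at 408, 431 and 403 CPM in SEM::mock and at 243, 243 and 255 CPM in SEM::EGR3 (log2fc -0.75 ± 0.05, adjusted p = 3.89e-12).

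In the same complex UQCRC1, a core protein on the matrix side (chr3:48599002-48610976), was at 159, 151 and 168 CPM in SEM::mock and at 259, 287 and 252 CPM in SEM::EGR3. All SEM::EGR3 libraries exceeded the highest mock library (log2fc 0.73 ± 0.06, adjusted p = 8.54e-11). Its partner UQCRC2 was at 185 to 191 CPM against 197 to 203 CPM and was not called (log2fc 0.09 ± 0.05, adjusted p = 0.14), though it passed without normalization factors (log2fc 0.17, adjusted p = 0.0075). UQCRFS1, the Rieske iron-sulfur protein, was at 180 to 195 CPM against 183 to 188 CPM (log2fc -0.02 ± 0.05, adjusted p = 0.72). UQCR10 was called higher by a small margin (log2fc 0.13 ± 0.05, adjusted p = 0.026), a call that was lost without any 1 mock library or without SEM::EGR3 replicate 2 (adjusted p = 0.066 to 0.11).

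Complex II, succinate dehydrogenase, consists of 4 nuclear subunits. SDHA, the flavoprotein that oxidizes succinate (chr5:218241-256700), was at 123, 113 and 119 CPM in SEM::mock and at 172, 190 and 176 CPM in SEM::EGR3. It rose without overlap (log2fc 0.60 ± 0.06, adjusted p = 3.15e-09), and its duplicated copies SDHAP1 and SDHAP3, with which reads may be shared, were at 8.54 to 10.8 against 12.2 to 13.5 CPM and at 6.87 to 8.66 against 6.41 to 8.62 CPM. SDHD, a membrane anchor, was at 132, 115 and 115 CPM against 142, 153 and 157 CPM (log2fc 0.31 ± 0.06, adjusted p = 0.000109). The iron-sulfur subunit SDHB spanned 132 to 158 CPM against 138 to 145 CPM (log2fc -0.04 ± 0.06, adjusted p = 0.55), and the other anchor SDHC 63.1 to 70.2 CPM against 60.8 to 65.9 CPM (log2fc -0.06 ± 0.07, adjusted p = 0.48). So 2 of the 4 subunits were higher and 2 were not called.

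Complex I has 7 nuclear core subunits, among them those that carry the flavin and the iron-sulfur clusters, and here 1 was higher, 2 were lower and 4 were not called. The core subunit NDUFS3 was at 110, 107 and 106 CPM in SEM::mock and at 150, 161 and 155 CPM in SEM::EGR3, and it was the core subunit that rose (log2fc 0.52 ± 0.06, adjusted p = 1.5e-08). The lower ones were NDUFV2 (log2fc -0.31 ± 0.12, adjusted p = 0.021) and NDUFS8 (log2fc -0.16 ± 0.05, adjusted p = 0.014), the first not called without mock replicate 1 or 2 or SEM::EGR3 replicate 1 (adjusted p up to 0.184) and the second not without SEM::EGR3 replicate 3 (adjusted p = 0.0922). Without normalization factors both calls were lost as well (adjusted p = 0.0785 and 0.209), and that of NDUFV2 also with DESeq2's Wald test (adjusted p = 0.27). Of the counts of NDUFV2 and its processed copy, 65.2% lay in the copy. Of the other 31 NDUF genes, 6 were higher and 16 lower. They are accessory subunits apart from NDUFA4, known as a subunit of complex IV, and its paralog NDUFA4L2. NDUFC2, an accessory subunit of the membrane arm, was at 585, 588 and 585 CPM in SEM::mock and at 315, 296 and 322 CPM in SEM::EGR3. This was the largest fall among the nuclear complex I genes (log2fc -0.91 ± 0.05, adjusted p = 4.85e-14). NDUFS5, which belongs to the same arm, was at 706, 670 and 660 CPM against 436, 463 and 449 CPM (log2fc -0.60 ± 0.05, adjusted p = 1.57e-10).

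NDUFA5 of the matrix arm was lower in the same way, at 182, 175 and 184 CPM against 124, 132 and 141 CPM (log2fc -0.45 ± 0.06, adjusted p = 2.63e-07). NDUFA9, an accessory subunit near the ubiquinone site, was at 75.6, 69.2 and 71.8 CPM in SEM::mock and higher, at 90.9, 106 and 97.15 CPM, in SEM::EGR3 (log2fc 0.43 ± 0.07, adjusted p = 4.95e-06). NDUFB4 of the membrane arm was at 225, 240 and 231 CPM against 289, 284 and 281 CPM (log2fc 0.30 ± 0.05, adjusted p = 2.23e-05), although 22.5% of the counts of this gene and its processed copies lay in the copies. Subunits of both arms were therefore found in both directions.

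Among the nuclear COX genes of complex IV the differences were narrow. NDUFA4 and NDUFA4L2 were counted with complex I by name and are described below. COX5A, which binds near the catalytic core, was at 435, 411 and 435 CPM in SEM::mock and at 343, 340 and 366 CPM in SEM::EGR3 (log2fc -0.29 ± 0.05, adjusted p = 2.99e-05). COX7B (log2fc -0.26 ± 0.06, adjusted p = 0.000222) and COX7A2 (log2fc -0.20 ± 0.05, adjusted p = 0.000982) were also lower without overlap. COX6C was the only higher one, and its libraries overlapped, at 449 to 486 CPM against 478 to 526 CPM (log2fc 0.14 ± 0.05, adjusted p = 0.025). That call was lost without mock replicate 2 or 3 and without SEM::EGR3 replicate 2 or 3 (adjusted p = 0.0599 to 0.145).

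Complex V makes ATP at its β subunits, which alternate with α subunits in a ring. ATP5F1B, the catalytic β subunit, was at 835, 873 and 905 CPM in SEM::mock and at 782, 751 and 748 CPM in SEM::EGR3 (log2fc -0.19 ± 0.05, adjusted p = 0.00129). ATP5F1A, the noncatalytic α subunit, was at 435, 439 and 431 CPM in SEM::mock and at 548, 530 and 563 CPM in SEM::EGR3, which was higher in every library (log2fc 0.33 ± 0.05, adjusted p = 2.22e-06). The γ subunit gene ATP5F1C was at 156, 155 and 162 CPM against 131, 124 and 127 CPM (log2fc -0.30 ± 0.06, adjusted p = 3.27e-05), and ATP5PB, the b subunit of the peripheral stalk, was lower as well (log2fc -0.36 ± 0.06, adjusted p = 3.32e-06). The membrane subunits e and f also differed in sign. ATP5MF, subunit f, was at 562, 568 and 572 CPM against 373, 377 and 387 CPM (log2fc -0.58 ± 0.05, adjusted p = 1.39e-10), and ATP5ME, subunit e, at 489, 431 and 422 CPM against 503, 565 and 548 CPM (log2fc 0.27 ± 0.06, adjusted p = 0.000328).

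**Figure D4:**
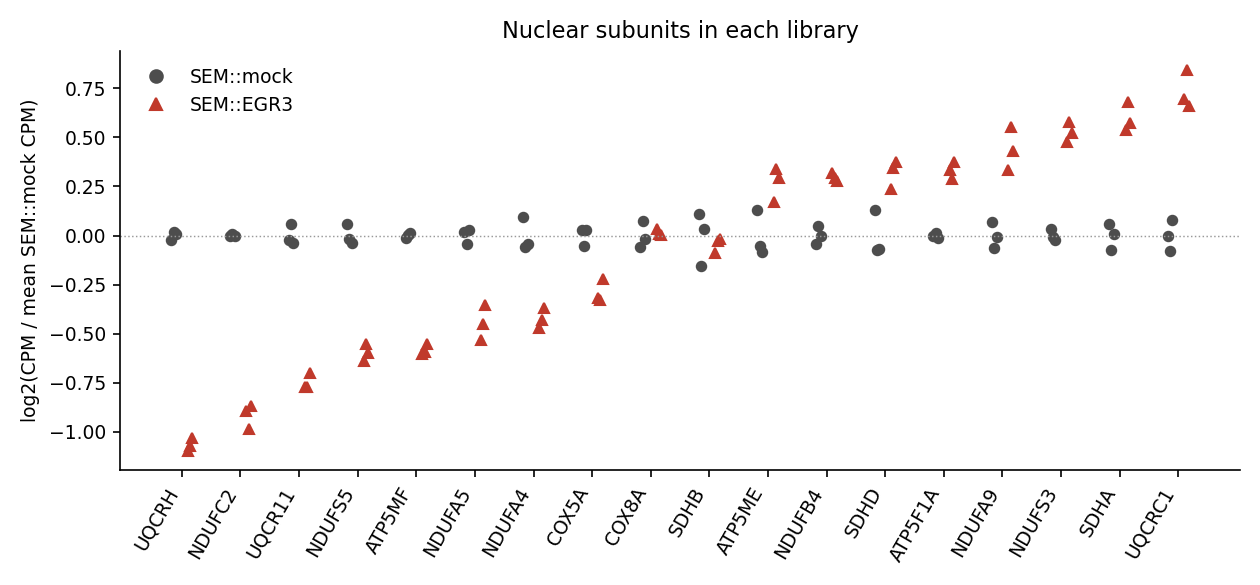
Nuclear subunits in each library as the log2 ratio of CPM to the mean of the SEM::mock libraries, ordered by their difference. Circles are SEM::mock and triangles SEM::EGR3 libraries. The replicates of a gene lie close together, COX8A and SDHB overlap between the lines, and the fitted log2fc runs from -1.06 for UQCRH to 0.73 for UQCRC1.

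Some subunits have isoforms that are restricted to certain tissues or states. NDUFA4L2, a paralog of NDUFA4 known to be induced in hypoxia, rose from 5, 6 and 4 counts in the mock libraries to 123, 64 and 83 in SEM::EGR3, or from 0.784 to 1.01 CPM to 7.93 to 9.17 CPM. It showed the largest rise of all members, although from a level near the detection limit (log2fc 3.22 ± 0.27, adjusted p = 1.03e-10). Its counterpart NDUFA4, counted with complex I by its name but known as a subunit of complex IV, was at 579, 520 and 526 CPM in SEM::mock and at 391, 402 and 420 CPM in SEM::EGR3 (log2fc -0.42 ± 0.05, adjusted p = 1.93e-07). The paralogs thus differed in direction.

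The heart, lung and testis isoforms of complex IV stayed near zero. COX6A2 had 0 counts in all 6 libraries, which allows up to 3 counts in each, and COX4I2, COX6B2 and COX8C had 0 counts in each mock library and at most 3 in any SEM::EGR3 library. COX7B2 had 3, 2 and 2 counts against 11, 8 and 5. These 5 genes and the read-through ATP5MF-PTCD1 were not tested. Their common counterparts were abundant. COX7B, the counterpart of COX7B2, was lower as given above. COX4I1 was at 933 to 935 CPM against 819 to 882 CPM (log2fc -0.14 ± 0.05, adjusted p = 0.013), COX6A1 at 537 to 557 CPM against 492 to 509 CPM (log2fc -0.12 ± 0.05, adjusted p = 0.029), and COX6B1 at 713 to 740 CPM against 642 to 666 CPM (log2fc -0.15 ± 0.05, adjusted p = 0.0095). COX8A, the counterpart of COX8C, was not called, at 1023 to 1120 CPM against 1065 to 1091 CPM (log2fc 0.01 ± 0.05, adjusted p = 0.80). COX7A2L, a supercomplex factor related to COX7A2 and no counterpart of these isoforms, was at 104 to 107 CPM against 94.6 to 98.7 CPM (log2fc -0.14 ± 0.06, adjusted p = 0.035). The calls of COX4I1, COX6A1, COX6B1 and COX7A2L were each lost without normalization factors (adjusted p = 0.20 to 0.42). The call of COX4I1 was lost without SEM::EGR3 replicate 3 (adjusted p = 0.09), that of COX6A1 without mock replicate 2 or SEM::EGR3 replicate 2 or 3 (adjusted p = 0.067 to 0.079), and that of COX7A2L without mock replicate 2 or any 1 SEM::EGR3 library (adjusted p = 0.052 to 0.12).

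Promoters of the members were taken from RefSeq (GRCh38.p14), from 250 bases before to 50 after each gene start, and were found for 69 of the 86 nuclear genes. Searched on both strands were GCGCA and GCGC separated by any base for NRF1, CCGGAAG for ETS factors such as GABPA, AAGATGGC for YY1 and GCGNGGGCG for the EGR family. The NRF1 letters were present in 24.6% of the members' promoters, in 13.6% of those of the other tested protein-coding genes and in 6.98% of all promoters. They stood in 7 of 12 promoters of higher members, in 5 of 31 of lower members and in 4 of 22 of members that were tested but not called. The ETS letters were found in 30.4%, 22.9% and 12.2% of the same 3 sets, and those for YY1 in 17.4%, 6.44% and 3.52%. The EGR letters were found in 11.6% of members against 19.8% of other tested genes and 11.2% of all promoters. Among higher, lower and uncalled members, the ETS letters stood in 4 of 12, 10 of 31 and 7 of 22 promoters. In the same order, those for YY1 stood in 3, 3 and 6 promoters and those for the EGR family in 2, 2 and 3. For the other tested genes no split by direction was counted, so the NRF1 split has no background beside it. These shares are counts of letters without a test.

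The promoter of SDHA, which rose, held 4 NRF1 matches, and that of UQCRH, which fell furthest, held none but 1 ETS match. The pair was picked and does not stand for the members. UQCRC1, with a larger rise than SDHA (log2fc 0.73 against 0.60), held 1 NRF1 match. UQCR11, which was lower (log2fc -0.75), held 2. Whether the letters go with the direction was not tested. The 250 bases before the start of SDHA and of UQCRH are shown with the matches in capitals. They lie at chr5:218070-218319 for SDHA and at chr1:46303448-46303697 for UQCRH, both on the plus strand.
SDHA: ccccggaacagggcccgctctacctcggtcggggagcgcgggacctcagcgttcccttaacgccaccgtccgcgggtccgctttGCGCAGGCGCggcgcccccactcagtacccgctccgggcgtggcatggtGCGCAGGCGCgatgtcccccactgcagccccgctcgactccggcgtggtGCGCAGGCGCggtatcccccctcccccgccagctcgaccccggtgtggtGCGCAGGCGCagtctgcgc
UQCRH: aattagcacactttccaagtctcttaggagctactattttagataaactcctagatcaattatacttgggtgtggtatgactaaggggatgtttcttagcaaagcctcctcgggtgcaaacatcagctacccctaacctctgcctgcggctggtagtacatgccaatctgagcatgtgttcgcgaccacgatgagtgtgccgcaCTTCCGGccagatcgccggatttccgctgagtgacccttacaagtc

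The other 6 higher members with a match are shown as 30-base windows around the first NRF1 match, together with UQCR11 as a lower member that also holds it, to let the letters be compared. The windows lie at chr3:48609674-48609703 (minus strand) for UQCRC1, chr11:112086753-112086782 (plus) for SDHD, chr12:4649024-4649053 (plus) for NDUFA9, chr3:120596167-120596196 (plus) for NDUFB4, chr22:29767351-29767380 (plus) for UQCR10, chr4:674476-674505 (minus) for ATP5ME and chr19:1605472-1605501 (minus) for UQCR11.
UQCRC1: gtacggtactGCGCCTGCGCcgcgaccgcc
SDHD: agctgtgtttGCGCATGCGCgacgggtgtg
NDUFA9: ttcttggttaGCGCTTGCGCagacaggcga
NDUFB4: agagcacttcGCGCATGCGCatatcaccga
UQCR10: gtcggccccaGCGCAGGCGCggtggcgcga
ATP5ME: cgcagcaactGCGCAGGCGCagccgatgat
UQCR11: ccctccccgcGCGCGTGCGCgccgcggccg

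Listed nuclear regulators of respiratory genes, transcription factors and coactivators, were mostly higher in SEM::EGR3. Their action on the promoters above was not tested. Of 10 tested regulators, 8 were higher and 0 lower (80.0% and 0.0%), where 36.5% and 32.0% of all tested genes were. None was lower at an unadjusted p-value under 0.05 by edgeR or at an adjusted one by DESeq2. NRF1 was at 11.1, 15.4 and 9.61 CPM in SEM::mock and at 19.0, 19.1 and 19.1 CPM in SEM::EGR3 (log2fc 0.65 ± 0.13, adjusted p = 0.000158). The GABP subunit GABPA was at 12.0, 12.7 and 12.7 CPM against 20.5, 20.7 and 19.5 CPM (log2fc 0.70 ± 0.11, adjusted p = 7.94e-06), and GABPB2 at 10.8, 11.4 and 12.0 CPM against 24.5, 27.1 and 25.0 CPM (log2fc 1.16 ± 0.11, adjusted p = 2.11e-09). None of the 3 overlapped between the lines. The coactivator PPARGC1A had at most 3 counts in every library.

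Genes for upkeep of the mitochondrial chromosome were mostly lower, with 1 higher and 8 lower of 12 tested (8.3% and 66.7%, next to 36.5% and 32.0% of all tested genes). TFAM, which packages the chromosome and starts its transcription, was at 67.2, 61.1 and 69.2 CPM in SEM::mock and at 57.5, 55.5 and 56.4 CPM in SEM::EGR3 (log2fc -0.22 ± 0.07, adjusted p = 0.0075), and without normalization factors it was not called (adjusted p = 0.083). The topoisomerase TOP1MT (log2fc -0.65 ± 0.07, adjusted p = 1.89e-08), the ribonucleotide reductase subunit RRM2B (log2fc -0.76 ± 0.11, adjusted p = 1.41e-06) and the polymerase accessory subunit POLG2 (log2fc -0.60 ± 0.11, adjusted p = 3.72e-05) were lower as well. The nuclease MGME1 was the only gene of the list that rose (log2fc 0.32 ± 0.09, adjusted p = 0.0031), a call lost without mock replicate 2 (adjusted p = 0.069).

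Of 24 tested genes for mitochondrial RNA synthesis and processing, 4 were higher and 8 lower. The lower share of 33.3% was near the 32.0% of all tested genes, and the higher share of 16.7% was under their 36.5%. The RNA polymerase POLRMT was not called, at 36.3 to 39.8 CPM against 38.5 to 40.1 CPM (log2fc 0.03 ± 0.08, adjusted p = 0.74), whereas its initiation factor TFB2M was at 58.0, 48.1 and 54.1 CPM against 36.3, 35.3 and 36.8 CPM (log2fc -0.56 ± 0.08, adjusted p = 9.31e-07). TBRG4, an RNA-binding protein of the FASTK family, was at 155, 142 and 153 CPM in SEM::mock and at 84.9, 91.6 and 84.7 CPM in SEM::EGR3 (log2fc -0.79 ± 0.06, adjusted p = 1.96e-11). FASTK itself was higher, at 49.2 to 54.25 CPM against 83.2 to 94.3 CPM (log2fc 0.76 ± 0.07, adjusted p = 7.97e-10). LRPPRC, which stabilizes mitochondrial mRNAs, was at 192 to 207 CPM against 201 to 213 CPM and was not called (log2fc 0.06 ± 0.06, adjusted p = 0.33).

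Assembly factors were counted by complex, beside 36.5% higher and 32.0% lower among all tested genes. Of those for complex I 6 were higher and 7 lower of 19 (31.6% and 36.8%), shares near the background. Of those for complex IV 11 were higher and 4 lower of 23 (47.8% and 17.4%). The other lists are short, with 2 and 0 of 4 for complex II, 0 and 3 of 6 for complex III and 2 and 2 of 5 for complex V. The complex I factor COA1 was at 145, 124 and 136 CPM against 54.8, 59.9 and 61.3 CPM (log2fc -1.21 ± 0.07, adjusted p = 5.84e-14), and DMAC1, which acts on the distal membrane arm, at 39.4, 41.0 and 38.8 CPM against 90.4, 92.9 and 88.9 CPM (log2fc 1.19 ± 0.07, adjusted p = 8.47e-14). The copper chaperone SCO2 of complex IV was at 24.9, 22.1 and 28.6 CPM against 75.3, 73.7 and 68.1 CPM (log2fc 1.53 ± 0.09, adjusted p = 5.57e-14). COA4 was the largest fall of that list (log2fc -0.71 ± 0.06, adjusted p = 6.46e-11). In the list for complex III, UQCC3 (log2fc -0.92 ± 0.08, adjusted p = 3.38e-10), UQCC2 (log2fc -0.52 ± 0.06, adjusted p = 3.25e-08) and BCS1L, which inserts the Rieske protein (log2fc -0.25 ± 0.07, adjusted p = 0.0027), were lower. ATP5IF1, the inhibitor of complex V, was at 892, 801 and 830 CPM in SEM::mock and at 556, 605 and 573 CPM in SEM::EGR3 (log2fc -0.54 ± 0.05, adjusted p = 2.19e-09). In the list for complex V, ATPAF1 fell further (log2fc -0.76 ± 0.09, adjusted p = 4.53e-08). TMEM70 was the largest rise of that list (log2fc 0.36 ± 0.07, adjusted p = 8.85e-05).

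Among 6 tested electron carriers and related genes, CYC1 included, 1 was higher and 3 were lower, next to 36.5% and 32.0% of all tested genes. CYCS, cytochrome c, was at 466, 428 and 450 CPM in SEM::mock and at 264, 257 and 277 CPM in SEM::EGR3 (log2fc -0.75 ± 0.05, adjusted p = 4.86e-12). CYC1, the cytochrome c1 subunit of complex III that the naming rule does not include, spanned 298 to 322 CPM against 286 to 319 CPM (log2fc -0.04 ± 0.06, adjusted p = 0.54). UQCRH and cytochrome c, which meet at the same site of complex III, were thus both lower while CYC1 was not called. In coenzyme Q synthesis 7 genes were higher and 2 lower of 12 (58.3% and 16.7%, against the same background), with COQ2 (log2fc 1.13 ± 0.14, adjusted p = 8.04e-08) and COQ10B (log2fc -0.52 ± 0.11, adjusted p = 0.000138) as the largest rise and fall.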

How the data were processed

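RNA of 3 SEM::mock and 3 SEM::EGR3 replicates was measured by MACE-Seq. Counts deposited by the authors are whole numbers per gene, not normalized. The deposited columns named TPM hold CPM, counts per 1000000 of a larger library total, of which the listed genes held 73.6% to 75.8%. The submitters' processing notes name bcl2fastq, Bowtie2, HTSeq and GRCh38, without versions, and the use of strand, multiply mapped reads and molecular identifiers is not given in the sources used here. Size-factor values and the authors' own fold changes and p-values were not used, and of the columns with values of a sample 0 could not be matched. The headings spell the gene ERG3, which was read as the EGR3 line.

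Counts were filtered with filterByExpr, scaled by TMM factors and compared with the quasi-likelihood test of edgeR 4.0.16 in R 4.3.3 over all 6 libraries. P-values were adjusted by Benjamini-Hochberg over 15465 genes and called under 0.05. The p-values set the difference between the lines against the spread between these replicates, and apply to these cultures only. That spread may be partly technical, and no replicates of a line agreed within sampling noise. The procedure was tested on simulated data in which few genes changed, as many up as down. In these data 68.5% of the tested genes were called, a setting that the simulation does not cover. CPM in the text are counts per 1000000 counts in the tested genes with TMM factors, and the SE was derived from the fitted log2fc and its F statistic. A gene with at most 3 counts per library was treated as at the detection limit, which covers counting error only.

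Named were all mitochondrial genes, the SDH genes, and set isoforms and regulators. Selected as well were the 3 largest rises and falls per complex and per list. They were taken among called genes that averaged 100 or more counts per library in the line with more. Those of the complexes are all named. Of those selected for assembly, electron carriers, coenzyme Q synthesis and mitochondrial RNA, only a part is named. Some further genes of these families, such as UQCRC2, UQCRFS1, SDHAP1, ATP5F1B, NDUFV2, NDUFS8 and the mitochondrial ribosomal RNAs, and the cell type markers given singly, were named after their values were seen. Members and lists were chosen with earlier results of these data known. Positions come from GENCODE 29. Alternatives were DESeq2 1.42.0, other scalings and filters, a replicate term, leaving out each library, a fold threshold, and adding the counts of copies, the last chosen after seeing the data.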

Additional observations from a re-analysis of the deposited data

How the results depend on the processing

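All 13 mitochondrial genes kept a negative log2fc under all 15 refits, and 10 to 13 were called lower. Nuclear calls stayed between 11 and 19 higher and between 26 and 42 lower, and the nuclear median stayed negative. Leaving out 1 library gave 11 to 13 lower mitochondrial genes, 11 to 14 higher and 32 to 42 lower nuclear genes, 1 to 2 higher genes in complex III, and in complex IV 0 to 1 higher and 4 to 8 lower. At an absolute log2fc of at least 1 there remained 0 mitochondrial genes, 1 higher nuclear gene, in complex I, and 1 lower, in complex III. Complexes II, IV and V then had 0, complex III 0 higher and complex I 0 lower. Without normalization factors complexes III and V had 4 higher genes each and complex IV 3 lower, and with at least 10 counts in every library complex IV had 3 lower. Without a filter complex III had 1 higher gene. For these changes the cause was not tested. The log2 ratio of the mitochondrial share, -0.39, moved by less than the spread between replicates with other denominators, with copies added and without any 1 library.

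Deviations of libraries with the same replicate number correlated at -0.18, -0.14 and -0.06 over 12801 genes, which gave no sign of pairing. With 3 libraries per line these values cannot show that the cultures were unpaired, and the sample labels do not say. With the replicate block 11 mitochondrial genes were lower, 11 nuclear genes higher and 31 lower, with 1 higher gene in complex III and 0 higher and 4 lower in complex IV. Of 96 tested genes selected for naming, printed or not, none changed sign when called, 12 lost and 3 gained a call under at least 1 alternative. Depth limits the isoforms with few counts, for which a difference was not detectable.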

Other observations

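Coding length and the differences of the nuclear subunits ran together to a small degree. Across the 80 tested nuclear members Spearman's rho between coding length and log2fc was 0.26 (Pearson's r 0.17, or 0.29 and 0.37 without NDUFA4L2), next to 0.07 and 0.04 over 12094 other tested protein-coding genes. Genes are not independent replicates, and the points share the same 6 libraries. Of the 22 members with a coding sequence under 300 bases 4 were higher and 13 lower (median log2fc -0.18), and of the 17 with 750 bases or more 5 and 6 (median -0.04). Of the other tested protein-coding genes under 300 bases 57 were higher and 75 lower of 184 (median -0.06), and of those with 750 bases or more 3885 and 3176 of 9825 (median 0.06).

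The 9 noncoding rows that share a name with the subunits gave 1 higher and 1 lower gene among 5 tested. NDUFB2-AS1, an antisense RNA of NDUFB2, was at 3.00, 3.685 and 3.92 CPM in SEM::mock and at 7.22, 9.56 and 8.73 CPM in SEM::EGR3 (log2fc 1.23 ± 0.20, edgeR adjusted p = 9.81e-06), while NDUFB2 was at 337 to 355 CPM against 314 to 331 CPM and was not called (log2fc -0.10 ± 0.05, adjusted p = 0.098). Without a known strand setting reads of the pair cannot be told apart. UQCRHP2, a processed copy of UQCRH, was at 2.68 to 3.53 CPM against 0.839 to 1.22 CPM (log2fc -1.64 ± 0.30, adjusted p = 3.81e-05), and UQCRBP1 at 106 to 135 CPM against 122 to 141 CPM (log2fc 0.10 ± 0.07, adjusted p = 0.23). All of these genes were chosen after their values were seen.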
